A study of Saccharomyces cerevisiae with 2 samples.

Results

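Replication origins are the chromosomal sites at which DNA synthesis starts, and in budding yeast they are mapped as autonomously replicating sequences (ARS). The members described here are all 352 origins that the RefSeq annotation of the *Saccharomyces cerevisiae* S288C genome (sacCer3, R64) places on the 16 nuclear chromosomes. They were chosen by this annotation and not by any value of the peak list. They were set against the binding sites of Vid22, a DNA-binding protein tagged with 13 copies of the Myc epitope (Vid22-13Myc), as the peak list of a ChIP-seq experiment gives them. ChIP-seq recovers and sequences the DNA that is cross-linked to a protein. The 2 conditions, Vid22-13Myc cells and wild type cells with no tag as control, have 1 library each, and each library pooled the DNA of 2 ChIP experiments, so there are no replicates and no value here has an error over cultures. Cultures of both strains, pre-grown overnight in YEP, were diluted into fresh medium, grown further and then cross-linked with formaldehyde. Chromatin was recovered with a monoclonal antibody against Myc, although the labels of the control name no antibody for it, and the names of the peaks in the list contrast one immunoprecipitate (IP2) with another (IP1). The control was used only to call the peaks and its own profile was not analysed here.

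The list holds 811 peaks. Unless another set is named, a peak here is one of the 445 with a -log10 q-value of at least 9, where q is the false discovery rate that the peak caller gave at the summit, the position of highest enrichment. The fold of a peak is the enrichment over the control at its summit and not at the origin it overlaps. The numbers of reads are not in the list, so the depth is unknown. Wilson intervals at the 95% level cover the counting of origins alone. The peaks covered 4.88% of the nuclear genome and 4.25% of the sequence annotated as origins.

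An origin of budding yeast holds a match to the ARS consensus sequence, an 11-base T-rich element that the origin recognition complex (ORC) binds. ORC, with Cdc6 and Cdt1, loads the Mcm2-7 helicase there in G1, and the Cdc7-Dbf4 and cyclin-dependent kinases fire it in S phase. Most origins lie between genes. Those near telomeres include the ARS in the X element, a repeat that chromosome ends share, and these tend to fire late or to stay dormant. A small group at the silent mating-type loci HML and HMR works as silencers, which bind ORC and recruit Sir proteins. Vid22 is known to associate with Tbf1, a general regulatory factor, and its sites are here examined for TAGGG, the Tbf1 consensus that the study uses. G-quadruplexes (G4) are folded structures of G-rich DNA, predicted here where 4 or more runs of 3 G follow each other with 1 to 25 bases between them.

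The origins were separated into 3 classes that do not overlap. Within 20 kb of a chromosome end lay 40 origins, 22 others had at most 500 bp between them and a nuclear tRNA gene, and 290 were in neither class. No origin met both rules. Origin lengths ranged from 51 to 1324 bp (median 241 bp). The sequences below, read from the RefSeq genome (sacCer3), are those on which the account of each class turns. Short origins in the annotated telomere features of chromosomes III, I, V and VI are shown first, as the shortest origins under a peak that share a run of bases described further on. The capitals mark an exact match to the ARS consensus sequence, which is the same in these 5, and each is written on the strand of the match.

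ARS300 (chrIII:989-1068, minus strand): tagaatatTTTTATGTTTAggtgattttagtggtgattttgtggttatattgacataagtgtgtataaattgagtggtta
ARS102 (chrI:707-776, minus strand): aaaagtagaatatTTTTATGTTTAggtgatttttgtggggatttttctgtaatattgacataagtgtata
ARS503 (chrV:6378-6453, minus strand): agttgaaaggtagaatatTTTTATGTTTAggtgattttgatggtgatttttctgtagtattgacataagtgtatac
ARS523 (chrV:569618-569695, plus strand): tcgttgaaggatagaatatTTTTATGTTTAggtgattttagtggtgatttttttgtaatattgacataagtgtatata
ARS600 (chrVI:5426-5529, minus strand): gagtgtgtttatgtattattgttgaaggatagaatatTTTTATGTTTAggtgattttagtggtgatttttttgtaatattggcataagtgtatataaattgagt

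For the class near tRNA genes, ARS606 is shown with the tRNA-Tyr gene beside it. The origin is a highly efficient one by its annotation, and its capitals mark an exact match to the ARS consensus sequence. In the tRNA gene the capitals mark GTTCGANNC, the core of the box B promoter to which TFIIIC binds.

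ARS606 (chrVI:167547-167801, minus strand): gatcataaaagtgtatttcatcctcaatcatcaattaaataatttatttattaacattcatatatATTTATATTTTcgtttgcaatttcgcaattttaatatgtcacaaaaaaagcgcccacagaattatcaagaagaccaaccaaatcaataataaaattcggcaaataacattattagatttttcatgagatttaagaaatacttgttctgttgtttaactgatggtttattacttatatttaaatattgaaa
YNCF0007W (chrVI:167437-167525, plus strand): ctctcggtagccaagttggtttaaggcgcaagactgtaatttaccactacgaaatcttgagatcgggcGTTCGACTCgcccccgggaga

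In the remaining class, ARS1 and ARS607 are model origins without a peak, while ARS701 and ARS1332 lay under strong peaks. The capitals mark the best match to the ARS consensus sequence, exact in ARS1 and with 1 mismatch in the others.

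ARS1 (chrIV:462567-462622, minus strand): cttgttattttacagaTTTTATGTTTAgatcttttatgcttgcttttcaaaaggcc
ARS607 (chrVI:199395-199505, plus strand): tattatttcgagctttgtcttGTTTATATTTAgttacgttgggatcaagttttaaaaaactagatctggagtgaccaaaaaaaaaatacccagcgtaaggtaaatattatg
ARS701 (chrVII:231907-231981, plus strand): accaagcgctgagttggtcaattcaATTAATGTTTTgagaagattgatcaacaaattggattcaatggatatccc
ARS1332 (chrXIII:897935-897985, minus strand): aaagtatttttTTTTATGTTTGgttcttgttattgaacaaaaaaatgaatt

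Vid22 peaks overlapped 27 of the 352 origins, or 7.67% (Wilson interval 5.32% to 10.9%), and these 27 were distributed unevenly over the classes. As the background, an interval of the median origin length was placed at every position of the nuclear genome, and 5.73% of positions met a peak. The peaks overlapped 14 of the 40 chromosome-end origins (35%, interval 22.1% to 50.5%), where 5.93% of the positions in the same zone met one. Among the origins near a tRNA gene it was 10 of 22 (45.5%, interval 26.9% to 65.3%), with 29% of the positions of that zone. Among the other origins it was 3 of 290 (1.03%, interval 0.352% to 3%), and 4.98% of positions there met a peak. Most of these origins lie between genes, and of the positions between genes in the same zone 6.5% did. With each origin taken at its own length, the shares of positions correspond to 2.71 chromosome-end, 6.51 tRNA-near and 14.6 other origins, or 20.8 where the classes are not separated. The share of all origins was thus close to that of the genome, while the chromosome-end origins lay above their zone and the other origins below theirs, each with an interval that does not reach the background. The interval of the tRNA-near origins includes their background.

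**Figure D1:**
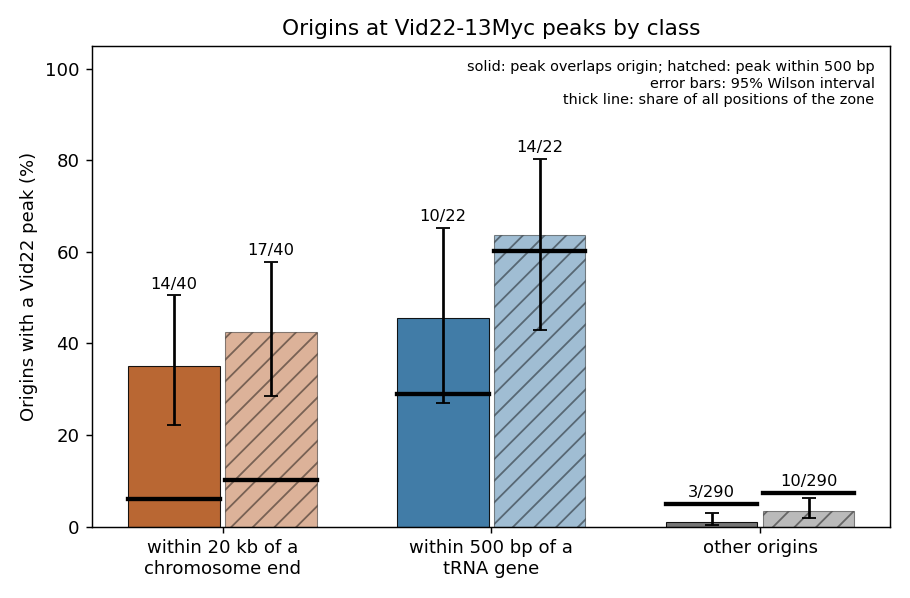
Share of origins (%) that a Vid22 peak overlaps (solid bars) or has within 500 bp (hatched bars) in the 3 classes, with 95% Wilson intervals as error bars and the counts above them. The thick lines give the share of all positions of the same zone: 5.93%, 29% and 4.98% for overlap, with bars of 35%, 45.5% and 1.03%.

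With flanks of 500 bp on either side, 41 of the 352 origins (11.6%, interval 8.7% to 15.4%) had a peak, and so did 9.12% of all positions. In the chromosome-end class there were 17 (42.5%, background 10.1%), and in the tRNA-near class 14 (63.6%, background 60.1%). The other origins had 10 (3.45%, interval 1.88% to 6.23%), below the 7.43% of positions in their zone. Taking all 811 peaks of the list, down to a -log10 q of 1.34, 33 origins were overlapped (9.38%, background 8.1%). Of the other origins 8 were (2.76%, interval 1.4% to 5.35%), where 7.42% of positions met a peak.

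**Figure D2:**
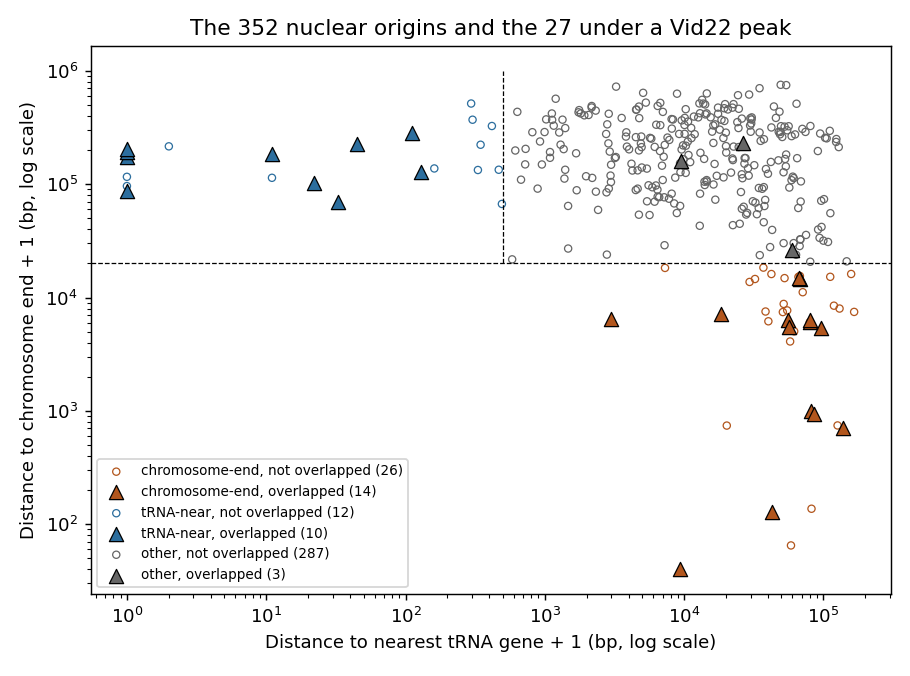
Each of the 352 nuclear origins by its distance to the nearest tRNA gene (x axis, bp, log scale) and to the chromosome end (y axis, bp, log scale), with 1 bp added to both. Triangles are the 27 origins under a Vid22 peak and circles the rest, and the dashed lines at 20 kb and 500 bp bound the 3 classes: of the 290 origins in the upper right field, 3 are triangles.

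Of 10 model origins examined, ARS606 was overlapped and 9 were not, close to the share of all 352 origins, of which 92.3% were not overlapped. ARS1, next to TRP1 and active in nearly every cell cycle by its annotation, lay 2496 bp from the nearest peak. The early and efficient ARS305 on chromosome III lay 24571 bp away, ARS306 lay 3643 bp and ARS307 11829 bp. For ARS309 and ARS315 the distances were 4122 and 2729 bp. On chromosome VI, ARS607, which fires very early, lay 5314 bp from a peak, and the late ARS609, a chromosome-end origin, 13381 bp. ARS1021 on chromosome X was 17802 bp away. Every position of these 10 origins starts a 50-mer found once in the genome, so reads of that length have a single place there. The 290 origins had a median distance of 10530 bp to the nearest peak, against 10157 bp over all positions of their zone, so they were about as far from peaks on the whole. Their difference from the zone lay close by: a peak covered the centre of 3 (1.03%) of them, a position 1000 bp away in 12 (4.14%) on one side and in 8 (2.76%) on the other, and 5000 bp away in 11 and 12. The lowest cover on the curve of these origins, 1.03%, lay around their centres, and the highest, 5.86%, was reached 3250 bp away on either side. Part of this rise follows from the class rule: tRNA genes lie over 500 bp from these origins, and 160 of the 445 peaks overlap one. How large that part is was not counted.

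**Figure D3:**
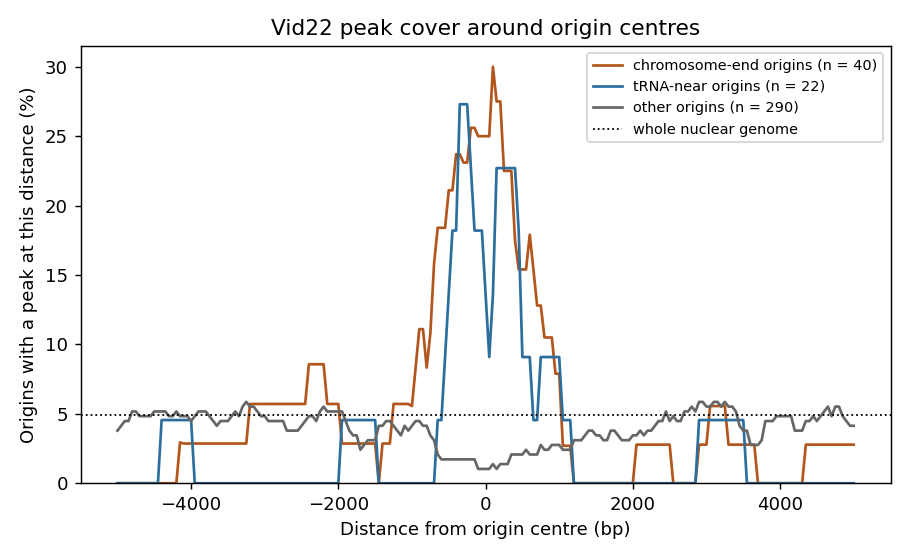
Share of origins (%) with a Vid22 peak at each distance (bp) from the origin centre, in chromosome coordinates, for the chromosome-end, tRNA-near and other origins, with the genome cover of 4.88% as a dotted line. The curve of the 290 other origins has its lowest value, 1.03%, about the centre, the chromosome-end curve reaches 30% 100 bp from it, and the tRNA-near curve has maxima on both sides of a dip. The class rule keeps tRNA genes over 500 bp from the other origins, while the dotted line counts the peaks on them.

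The 3 other origins under a peak lay within long and strong peaks whose summits were elsewhere. ARS701 lies inside the coding sequence of TIP20, which encodes a protein of vesicle transport to the endoplasmic reticulum, at the edge of a peak of 4801 bp on chromosome VII (227290 to 232090). This peak had a fold of 6.62, the 16th highest, and its summit, 227 bp upstream of the TIP20 start, was 1890 bp from the origin. The annotation describes ARS701 as having an imperfect match to the core consensus. ARS1332 lay in a peak of 13298 bp on chromosome XIII that spans 10 protein-coding genes, with a fold of 6.27 and its summit 3530 bp away, 193 bp upstream of PRE5, a proteasome subunit gene. ARS1307.5 was nearer to its summit, at 418 bp. Its peak of 2228 bp had a fold of 5.41 and a summit 210 bp upstream of NTE1, which encodes a phospholipase.

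The sequences at these 3 summits are shown because TAGGG (capitals, or its complement CCCTA) lies within 100 bp of each, as it does in 94.4% of the 90 peaks with a fold above 3. It was searched on both strands, and 14.3% of all 201 bp windows of the genome hold it. The 3 origins themselves hold no TAGGG.

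Summit of the peak over ARS701 (chrVII:229916-230116, plus strand): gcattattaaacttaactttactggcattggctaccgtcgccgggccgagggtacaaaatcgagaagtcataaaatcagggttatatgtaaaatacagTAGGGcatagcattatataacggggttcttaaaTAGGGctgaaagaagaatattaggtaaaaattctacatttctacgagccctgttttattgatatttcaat
Summit of the peak over ARS1332 (chrXIII:901416-901616, plus strand): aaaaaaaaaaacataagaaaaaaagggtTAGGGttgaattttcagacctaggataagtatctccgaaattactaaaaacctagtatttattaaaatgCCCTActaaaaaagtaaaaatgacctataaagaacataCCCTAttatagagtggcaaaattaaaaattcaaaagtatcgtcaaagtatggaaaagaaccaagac
Summit of the peak over ARS1307.5 (chrXIII:158368-158568, plus strand): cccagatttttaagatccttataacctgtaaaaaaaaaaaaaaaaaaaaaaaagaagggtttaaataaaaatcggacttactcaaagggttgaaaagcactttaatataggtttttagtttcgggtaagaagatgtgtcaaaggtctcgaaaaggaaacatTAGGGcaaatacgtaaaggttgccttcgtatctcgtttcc

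Besides these, 7 other origins had a peak in their flanks alone, and 4 of the 7 peaks had a fold above 3. ARS1120 lay 3819 bp from the summit of its peak (fold 6.78, upstream of TGL4), and ARS922 lay 3810 bp from its own (fold 5.83, upstream of DAL3). For ARS206 (fold 5.90, upstream of MRPL16) the distance was 2242 bp and for ARS521 (fold 5.11, upstream of CCA1) 1800 bp. The other 3 peaks were weaker. That near ARS404 had a fold of 2.02 and lay over SSB1, which encodes an abundant ribosome-associated chaperone, and that near ARS702 had a fold of 1.87. The peak near ARS318 (fold 1.86) overlapped a tRNA-Thr gene 582 bp from the origin. Peaks with a -log10 q under 9 overlapped a further 5 of the other origins, ARS404, ARS702, ARS922, ARS1230 and ARS1407. Their fold was 1.48, 1.67, 1.75, 1.35 and 1.41.

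Every peak over an origin of the tRNA-near class also overlapped a tRNA gene, and its summit lay within 34 bp of that gene or inside it. tRNA genes are transcribed by RNA polymerase III from promoters inside the gene. At ARS606 a peak of 335 bp (fold 2.17) covered 34.1% of the origin, and its summit lay inside the tRNA-Tyr gene printed above, 107 bp from the origin. That gene and the origin are 21 bp apart. The summit was also inside the tRNA gene at ARS443 (tRNA-Leu, fold 2.15) and at ARS1008 (tRNA-Asp, fold 1.67), and within 4 to 34 bp of it at the remaining 7. The median distance from summit to tRNA gene was 5.5 bp and from summit to origin 94 bp. For ARS915 and ARS1008, which overlap their tRNA genes, the summit lay in the origin as well.

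The highest fold of this class was 2.44, at ARS1331, a putative origin that overlaps a tRNA-Tyr gene and lies beside YKU70, which encodes a subunit of the Ku DNA end-binding protein. ARS912 (tRNA-Thr) followed with 2.20, then ARS606 and ARS443, ARS436 (tRNA-Ser) with 2.01 and ARS1308 (tRNA-Gly) with 1.92. The lower values were 1.87 at ARS1226, 1.76 at ARS915, 1.67 at ARS1008 and 1.65 at ARS1627. Lengths of these 10 peaks ran from 328 to 410 bp, and their folds, 1.65 to 2.44, had a median of 1.96, while the 160 peaks that overlap a tRNA gene had one of 1.87.

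The nearest tRNA gene was under a peak for 14 of the 22 origins (63.6%, interval 43% to 80.3%), close to the 152 of 253 (60.1%) among the remaining tRNA genes. The peak on the tRNA gene reached into 10 of these 14 origins and, since the class is bounded at 500 bp, it lay within about that distance of all 14. The 8 origins whose tRNA gene had no peak had no other peak over them or within 500 bp. Among these 8, ARS806 (tRNA-Thr) and ARS1409 (tRNA-Gly) overlap the gene, and ARS1423 (tRNA-Pro) and ARS1509 (tRNA-Thr) lie 1 and 10 bp from it. Origins 150 to 500 bp from a tRNA gene were overlapped in 0 of 8 cases, those nearer in 10 of 14, and those 500 to 1000 bp away in 0 of 11. The 10 peaks, 328 to 410 bp long with their summits at the gene, reach little farther. The share of positions at these distances was not counted.

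Peaks over the chromosome-end origins were longer, with a median of 834 bp, and their folds of 1.43 to 3.44 had a median of 2.49, while all 445 peaks had one of 1.87. The share overlapped was highest next to the end: 5 of 9 origins within 2 kb of it (background 18.8%), 7 of 18 from 2 to 10 kb (6.57%) and 2 of 13 from 10 to 20 kb (2.85%). Beyond that, from 20 to 40 kb, it was 1 of 21 (8.14%). The annotated telomere features, which comprise the X elements and their neighbours, held 19 of the 40 origins, and 11 of the 19 were overlapped (57.9%), while 3 of the 21 outside them were (14.3%, interval 4.98% to 34.6%). The 2 overlapped from 10 to 20 kb, ARS302 and ARS303, share a single peak and are among the 3 outside the features. The interval treats them as separate. Peaks were found in 12 of the 16 telomere features with an annotated origin and in 12 of the 16 without one.

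The highest fold was at ARS600 on chromosome VI (3.44, -log10 q of 117), in a peak of 2160 bp with its summit 466 bp away. ARS201 on chromosome II had 3.03, with the summit at 479 bp. These are the only chromosome-end origins under a peak with a fold above 3. Including ARS701, ARS1332 and ARS1307.5 there were 5 such origins of 352 (1.42%, interval 0.608% to 3.28%), where 3.19% of all positions met such a peak. Then came ARS200 at 2.86, which lies 39 bp from the left end of chromosome II, ARS302 and ARS303 at 2.79 and the putative ARS1335 at 2.71. The values at ARS736, ARS523 and ARS503 were 2.49, 2.49 and 2.38, and the 5 lower ones, ARS801, ARS102, ARS610, ARS824 and ARS300, ran from 1.99 to 1.43. Peaks covered 9 of the 14 in full, among them the 5 short origins ARS102, ARS300, ARS503, ARS523 and ARS600.

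The 5 telomere-feature origins printed above share more than the consensus match: TTTTATGTTTAGGTGATTTT, a run of 20 bases picked after their sequences had been seen, occurs in each. The run was taken from the start of the consensus match downstream only. The bases tagaatat just before the match, which the 5 also share, are not part of it. The run occurs 28 times in the nuclear genome, on either strand, and all 28 copies lie within 20 kb of an end. Peaks covered part of 15 of the copies (53.6%). Of the origins, 12 hold it, all in telomere features, where 11 of 19 chromosome-end origins lay under a peak (57.9%). Of the 12, 6 lay under one: the 5 shown and ARS201. The 5 shown were picked among origins under a peak, so they and their copies of the run were bound to count. The 6 not overlapped were ARS319, ARS400, ARS902, ARS1002, ARS1025 and ARS1632. ARS319, a short origin on the opposite end of chromosome III from ARS300, had a peak 16 bp away (fold 2.70), and ARS1025 had one 256 bp away (fold 1.67). In 4 of these (ARS400, ARS902, ARS1002 and ARS1025) a unique 50-mer begins at under 50% of the bases.

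The class is rich in repeats, where a read of 50 bp has no single place. Under 50% of the positions begin a unique 50-mer in 16 of the 40 chromosome-end origins, of which 2 were overlapped, and in 4 of the 290 other origins, which include both origins of the ribosomal DNA, ARS1200-1 and ARS1200-2, where no position does. With at least 50% unique positions, 12 of 24 chromosome-end origins (50%, interval 31.4% to 68.6%) were overlapped, where 8.65% of such positions in the zone met a peak. Of the other origins 3 of 286 were (1.05%). Predicted G4 elements were common under peaks near the ends, with or without an origin: the peaks over 8 of the 14 origins overlap one (57.1%), as do 23 of the 35 peaks within 20 kb of an end (65.7%) and 84 of all 445 (18.9%). By origin, 1 of 3 chromosome-end origins with a predicted G4 element within 200 bp was overlapped, and 13 of 37 without one (35.1%). TAGGG lay within 100 bp of the summit for 8 of the 14, for 1 of the 10 tRNA-near origins and for 157 of all 445 peaks (35.3%). The part of G4 elements, TAGGG and repeats in the overlap was not tested.

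**Figure D4:**
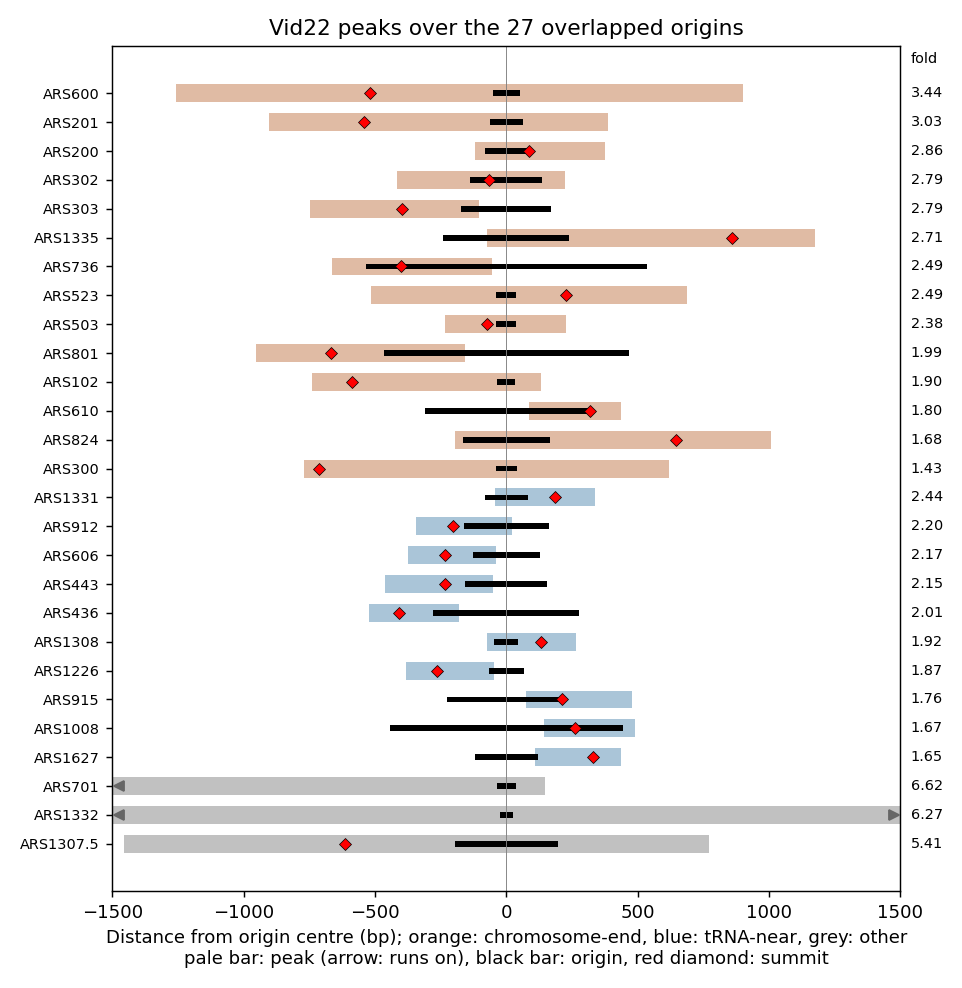
Position of the Vid22 peak (pale bar), its summit (red diamond) and the origin (black bar) for the 27 overlapped origins, as distance from the origin centre (bp), with the fold of each peak at the right. Summits lie beside most origins, and the 3 peaks at the bottom, over ARS701, ARS1332 and ARS1307.5, are 2228 to 13298 bp long, with 2 of their summits outside the range drawn.

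At the silent mating-type loci on chromosome III, a peak lay over the HML-I silencer region, on the centromere side of HML. ARS302 and ARS303 lie there, and neither is active as an origin at its native place by the annotation. The peak of 641 bp (14296 to 14936, fold 2.79, -log10 q of 42.2) had its summit inside ARS302, covered all of that origin and 19.2% of ARS303, and ended 277 bp before ARS320. It has no TAGGG within 100 bp of the summit, lies 9929 bp from a predicted G4 element and is far from any tRNA gene. ARS301, at the HML-E silencer on the opposite side, lay 2894 bp from this peak. At HMR, ARS317 of the HMR-E silencer lay 2497 bp and ARS318 290 bp from a peak. The latter peak, of 645 bp, has its summit 5 bp from the tRNA-Thr gene that flanks HMR, which is known as a barrier to the spread of silencing.

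Over all origins, the summit of a peak lay inside the annotated origin in 4 cases, ARS302, ARS736, ARS915 and ARS1008. None of them is in the class of 290. Seen from the peaks, 26 of 445 (5.84%) overlapped an origin, 14 of the 35 within 20 kb of an end (40%) and 5 of the 90 with a fold above 3 (5.56%). ARS302 and ARS303 share a peak, so the 14 peaks near an end are not simply those of the 14 overlapped chromosome-end origins. The median fold of the 26 was 2.18, and that of the 419 peaks without an origin was 1.86.

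Sequence features of the origins were set beside the overlap. An exact match to the ARS consensus sequence on either strand was present in 124 of the 352 origins (35.2%) and in 1.49% of all genome windows of the median origin length. It was present in 24 of 40 chromosome-end (60%), 6 of 22 tRNA-near (27.3%) and 94 of 290 other origins (32.4%). Within the chromosome-end class, 11 of the 14 overlapped origins (78.6%, interval 52.4% to 92.4%) and 13 of the 26 others (50%, interval 32.1% to 67.9%) had it, and in the tRNA-near class 4 of 10 and 2 of 12, so the intervals overlap in both. TAGGG was found in 53 of the 352 origins (15.1%), close to the 16.8% of genome windows of the same length. Of the 53, 4 were overlapped (7.55%), and of the 299 without it 23 (7.69%). A predicted G4 element within 200 bp was rare, at 9 origins, of which 1 was overlapped. The GC content had a median of 29.9% in overlapped origins and 29.7% in the rest.

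The annotation lists 53 of the 352 origins as putative, seen in array studies and not yet shown in a plasmid assay. Of these 6 were overlapped (11.3%, interval 5.29% to 22.6%), and of the 299 others 21 (7.02%, interval 4.64% to 10.5%). Gene orientation was described for the class of 290 alone. Between convergent genes, away from promoters, 0 of 97 origins were overlapped. It was 1 of 129 between tandem genes (ARS1307.5), 1 of 44 between divergent genes (ARS1332) and 1 of 20 inside a protein-coding gene (ARS701). The highest of these shares, 5%, has an interval of 0.888% to 23.6%, so the orientations could not be separated at these counts.

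Long terminal repeats (LTR) of Ty elements, which are also short, mostly intergenic and often next to tRNA genes, were counted for comparison. Of the 384 LTRs, peaks overlapped 51 (13.3%). LTRs are repeats, and how many of their positions give a read a single place was not counted. The part of this in the LTR shares below was not tested. In neither zone it was 3 of 151 (1.99%, interval 0.678% to 5.68%), an interval that overlaps that of the other origins. Within 500 bp of a tRNA gene it was 44 of 215 (20.5%, interval 15.6% to 26.4%), below the 29% of positions of that zone, while the interval of the 22 origins there includes that share. Near chromosome ends it was 4 of 18 (22.2%, interval 9% to 45.2%), where the interval overlaps that of the origins. Both LTRs and origins were thus overlapped least in neither zone, and for each of them the intervals of the other 2 zones overlap. Near tRNA genes the intervals of LTRs and origins do not overlap at 500 bp, but the LTRs were not limited to those with unique positions. The share of origins also depends on that distance and was 30.3% (interval 17.4% to 47.3%) with a distance of 1000 bp. At 1000 bp neither the share of LTRs nor that of positions was counted, so the 2 kinds were not compared there.

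Genes that encode the proteins of origin licensing and firing were examined as a list of 30. A gene counted when a peak overlapped it or its 500 bp upstream, as for 11.8% of the 6002 protein-coding genes. Peaks were found at 2 of the 30 (6.67%, interval 1.85% to 21.3%), FKH1 and ORC2. FKH1 encodes a forkhead transcription factor that also binds near origins and promotes early firing. Its peak on chromosome IX (98015 to 105204) was 7190 bp long, with a fold of 6.44, a -log10 q of 269 and its summit 241 bp upstream of the FKH1 start. The sequence about this summit is shown because it is the one member of the list with a peak in its upstream region, with the complement of TAGGG in capitals.

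Summit of the peak at FKH1 (chrIX:102376-102576, plus strand): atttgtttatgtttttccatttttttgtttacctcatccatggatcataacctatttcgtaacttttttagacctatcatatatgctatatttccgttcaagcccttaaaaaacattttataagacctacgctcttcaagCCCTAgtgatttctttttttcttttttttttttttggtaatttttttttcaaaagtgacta

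ORC2, a subunit of the origin recognition complex, was touched at its 3' end. The peak there, on chromosome II (359986 to 361031, fold 4.90), had its summit outside ORC2, 268 bp upstream of the start of AKL1, a kinase gene. A weaker peak covered nearly all of SLD5, which encodes a subunit of the GINS complex, and had its summit inside the gene, with a fold of 1.57 and a -log10 q of 5.54, below the threshold used here. At the other 27 genes, among them the remaining ORC subunits, CDC6, TAH11 (Cdt1), MCM2 to MCM7, CDC45, CDC7, DBF4 and ABF1, the list held no peak at any q-value.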

How the data were processed

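Per the labels and the methods, the authors aligned reads of 50 bp to sacCer3 with bowtie (1 best position per read), dropped duplicates (samtools rmdup) and ran MACS2. Versions are not given in the sources used here. The deposited fold is a ratio, the summit's pileup over its local control. The deposited list also gives, for each summit, the -log10 p-value, the -log10 q-value and a score, which is 10 times the latter rounded down. No read count or coverage track was used here. The sequence accessions of the list are those of the RefSeq genome used here. The methods' false discovery threshold, as written, is a minimum -log10 q of 9, which 445 peaks meet and which was used here. A minimum of 10 keeps 413 peaks, the number in the study's own peak set, so the study's threshold was probably 10. With it, the counts of origins overlapped, in all and in each class, and those with a peak within 500 bp were the same as with 9.

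An origin was overlapped when at least 1 bp was shared, and took the overlapping peak with the highest fold. Zone shares were counted over every position of a 241 bp interval. Because there is 1 library per condition, no test was made, and Wilson intervals (95%) describe counts. The ARS consensus was searched in its standard form on both strands. Origins were named by rule: those under a fold above 3, the highest folds of each class (up to 15 other, 6 chromosome-end and 6 tRNA-near), 10 model, 6 silencer and the ribosomal DNA origins. The remaining names were chosen after their values were seen. ARS416 is listed as ARS1. The members and lists were chosen with earlier results of these data known. Alternatives covered the threshold, the overlap, the zones, the flanks and repeats. Python 3.11.15, numpy 2.4.6, scipy 1.17.1, pandas 2.3.3 and matplotlib 3.10.9 were used.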

Additional observations from a re-analysis of the deposited data

How the results depend on the processing

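No paired analysis was possible because each condition has 1 library, and for the same reason none could be left out. Of 68 alternative values for 7 shares, 52 stayed within the Wilson interval of the main value and 16 left it. Counting an origin only where peaks covered at least 50% of it gave 4.55% of all origins and 13.6% of the tRNA-near ones. Counting it only where a summit lay inside gave 1.14% of all, 5% of the chromosome-end, 9.09% of the tRNA-near and 0% of the other origins, and 0% for peaks with a fold above 3. With a -log10 q of at least 20, 8.24% of origins had a peak within 500 bp. With a tRNA distance of 250 bp, the tRNA-near share was 66.7% (10 of 15). The next 2 settings were chosen after the data had been seen, and their 0% values follow from the summit distances and tRNA overlaps given above. Without the peaks that overlap a tRNA gene, the shares were 4.83% of all origins overlapped, 7.39% with a peak within 500 bp and 0% of the tRNA-near class. With peaks shortened to 250 bp on either side of the summit, they were 5.11% of all, 20% of the chromosome-end, 0% of the other origins and 0% for a fold above 3. The shares of positions were not counted again for the settings in this paragraph. Whether the origins lay above or below their zone under them was therefore not determined. Without read counts, the depth that limits weak peaks and repeats could not be given.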
